A study of Mus musculus with 81 samples.

Results

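The transcripts described here encode 9 proteins that move, store or sense iron in mouse macrophages, chosen by name: Slc40a1, Hmox1, Fth1, Ftl1, Tfrc, Slc11a1, Slc11a2, Spic and Ireb2, out of 54079 genes counted in every library. They were read in RNA-seq of bone marrow-derived macrophages (BMDMs) and peritoneal macrophages with and without the replacement histone H3.3. WT libraries came from mice whose H3f3a and H3f3b genes, which both encode H3.3, are floxed. H3.3cKO (cKO) libraries came from mice with the same floxed alleles plus Cre on both copies of the LysM locus, so that H3.3 is deleted in myeloid cells and Lyz2, the gene at that locus, is disrupted in the same animals. The series held 81 libraries, of which 79 in 27 groups entered comparisons, with 2 or 3 libraries in each group. The groups were WT and cKO bone marrow cultures on days 3, 5 and 7; day 8 BMDMs left untreated or given IFNg for 12 h; peritoneal macrophages; cultures with no antibody, a control antibody or an antibody against the type I interferon receptor chain IFNAR1; and 3 sets of WT and cKO BMDMs with 3 double knockouts. The double knockouts lacked H3.3 as the cKO did and also lacked Sting, Mavs or Irf7, which act in the sensing of nucleic acids and the induction of interferon. The mice were on a C57BL/6 background and were young adults of both sexes, and the marrow was grown in medium conditioned by L929 cells, a source of the macrophage growth factor M-CSF.

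Macrophages take iron back from aged red cells: haem is opened by haem oxygenase, the iron is held inside ferritin or leaves through ferroportin, and the amount in the cytosol sets how these transcripts are used. Iron regulatory proteins bind a hairpin called the iron responsive element (IRE) when iron is scarce; in a 5′ UTR the bound hairpin blocks translation, and in the 3′ UTR of the transferrin receptor it protects the mRNA from decay. RNA-seq therefore reads the mRNA of these genes and not the protein that the 5′ UTR hairpins control. For Tfrc the hairpins act on the amount of mRNA, which RNA-seq does read. Among the members, Slc40a1 encodes ferroportin, the exporter; Hmox1 haem oxygenase 1; Fth1 and Ftl1 the heavy and light chains of ferritin; Tfrc transferrin receptor 1, which brings in transferrin-bound iron; Slc11a1 (NRAMP1) and Slc11a2 (DMT1) divalent metal transporters of the phagosome and the endosome; Ireb2 iron regulatory protein 2; and Spic a transcription factor of the splenic red pulp macrophages that recycle iron.

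The hairpins that the search below found in 4 of the members are shown because these transcripts share them beyond their function. A search of the GENCODE vM21 transcripts on GRCm38 (mm10) for an unpaired C, 5 paired bases, the loop CAGTGN and a lower stem with at least 3 of 5 bases paired found a match in the 5′ UTR of 10 of 21901 protein-coding genes (0.0457%) and in the 3′ UTR of 36 (0.164%). Fth1, Ftl1 and Slc40a1 had 1 match each in the 5′ UTR and Tfrc had 4 in its 3′ UTR, all in its last exon. In each sequence the capitals mark the unpaired C and the loop.
Fth1, 5′ UTR, exon 2, chr19:9982733-9982759, plus strand: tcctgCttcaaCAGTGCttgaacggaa
Ftl1, 5′ UTR, exon 1, chr7:45459780-45459806, minus strand: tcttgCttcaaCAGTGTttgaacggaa
Slc40a1, 5′ UTR, exon 1, chr1:45925466-45925492, minus strand: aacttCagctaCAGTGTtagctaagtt
Tfrc, 3′ UTR, exon 19, chr16:32631220-32631246, plus strand: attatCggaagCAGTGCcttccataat
Tfrc, 3′ UTR, exon 19, chr16:32631599-32631625, plus strand: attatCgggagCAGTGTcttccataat
Tfrc, 3′ UTR, exon 19, chr16:32631664-32631690, plus strand: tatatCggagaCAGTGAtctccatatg
Tfrc, 3′ UTR, exon 19, chr16:32631711-32631737, plus strand: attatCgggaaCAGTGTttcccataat
The matches lay in 4 of the 5 coding transcripts of Fth1, 1 of 2 of Ftl1, 1 of 4 of Slc40a1 and 1 of 3 of Tfrc. No match to these letters was found in the UTRs of the other members, Slc11a2 among them. The search required 5 paired bases without a break, so a hairpin of another form would be missed. The genes lie apart on the mouse genome: Slc40a1 at chr1:45908068-45926523, Slc11a1 at chr1:74375195-74386062, Ftl1 at chr7:45457944-45459884, Hmox1 at chr8:75093621-75100589, Ireb2 at chr9:54863789-54912530, Spic at chr10:88674772-88685015, Slc11a2 at chr15:100387898-100425072, Tfrc at chr16:32608920-32632794 and Fth1 at chr19:9980598-9985098.

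Total counts per library ranged from 3614967 to 45581528. H3f3a stood at 33.6 to 93.8 CPM (counts relative to the library total, scaled by TMM factors) in WT and at 1.21 to 15.3 CPM in the libraries lacking H3.3, and Lyz2 was low in the same libraries. All 8 macrophage markers other than Lyz2 were detected in every group. Counts of Tmem173, the Sting gene, were 5.01 to 6.10 CPM in the Sting double KO against 68.2 to 91.6 CPM in the cKO sets, whereas Mavs was at 37.2 to 37.9 CPM in the group labelled Mavs double KO and at 36.0 to 51.6 CPM in the cKO sets. Irf7 was at 98.3 to 112 CPM in the group labelled Irf7 double KO against 249 to 470 CPM in the cKO sets, within the 36.6 to 155 CPM of WT. The study checked the deletions by PCR, qRT-PCR and RNA-seq reads and shows loss of some Mavs exons, which a whole-gene count does not resolve. The 2 day 8 IFNg cKO libraries correlated least with each other, at a mean r of 0.883 on log2 CPM, and the first of them held 3614967 counts. Haemoglobin and other red cell genes summed to at most 12.7 CPM in any library.

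Per kilobase of exon, the ferritin chains were the most abundant of the 9 transcripts and Spic the least. In WT on day 8, untreated, Fth1 stood at 1880 ± 118 CPM per kb (SD, n = 3) and Ftl1 at 764 ± 69.2. Hmox1 followed at 140 ± 8.96 CPM per kb, then Slc11a1 at 66.7 ± 4.93 and Tfrc at 22.7 ± 4.77. Slc40a1 was at 14.1 ± 3.50, Ireb2 at 8.83 ± 0.507 and Slc11a2 at 7.04 ± 0.897 CPM per kb, so that Ireb2 and Slc11a2 were close neighbours, and Spic was at 0.0619 ± 0.0191. Both ferritin chains together made up 72.6 to 96.1% of the CPM per kb of the 9 genes in every library.

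The members differed in how far they moved across the 27 groups. Ireb2 was the steadiest in culture, with group means between 60.6 CPM (cKO, IFNg) and 108 CPM (WT, set 2). Slc40a1 means ran from 0.955 ± 0.459 CPM in cKO peritoneal macrophages to 285 ± 24.8 CPM in cKO cultures with control antibody. Hmox1 means ran from 76.2 ± 13.1 CPM in WT given IFNg to 2488 ± 439 CPM in WT on day 3. Tfrc was highest in WT set 2, at 374 ± 17.7 CPM, next to WT on day 3 at 323 ± 94.3 CPM, a difference smaller than the spread on day 3, and lowest in WT peritoneal macrophages at 5.91 ± 1.35 CPM. The ferritin genes were highest in the antibody experiment, where Fth1 averaged 16820 CPM and Ftl1 3747 CPM in WT without antibody. The experiments were prepared and fitted apart, so levels across them also carry the preparation.

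**Figure D1:**
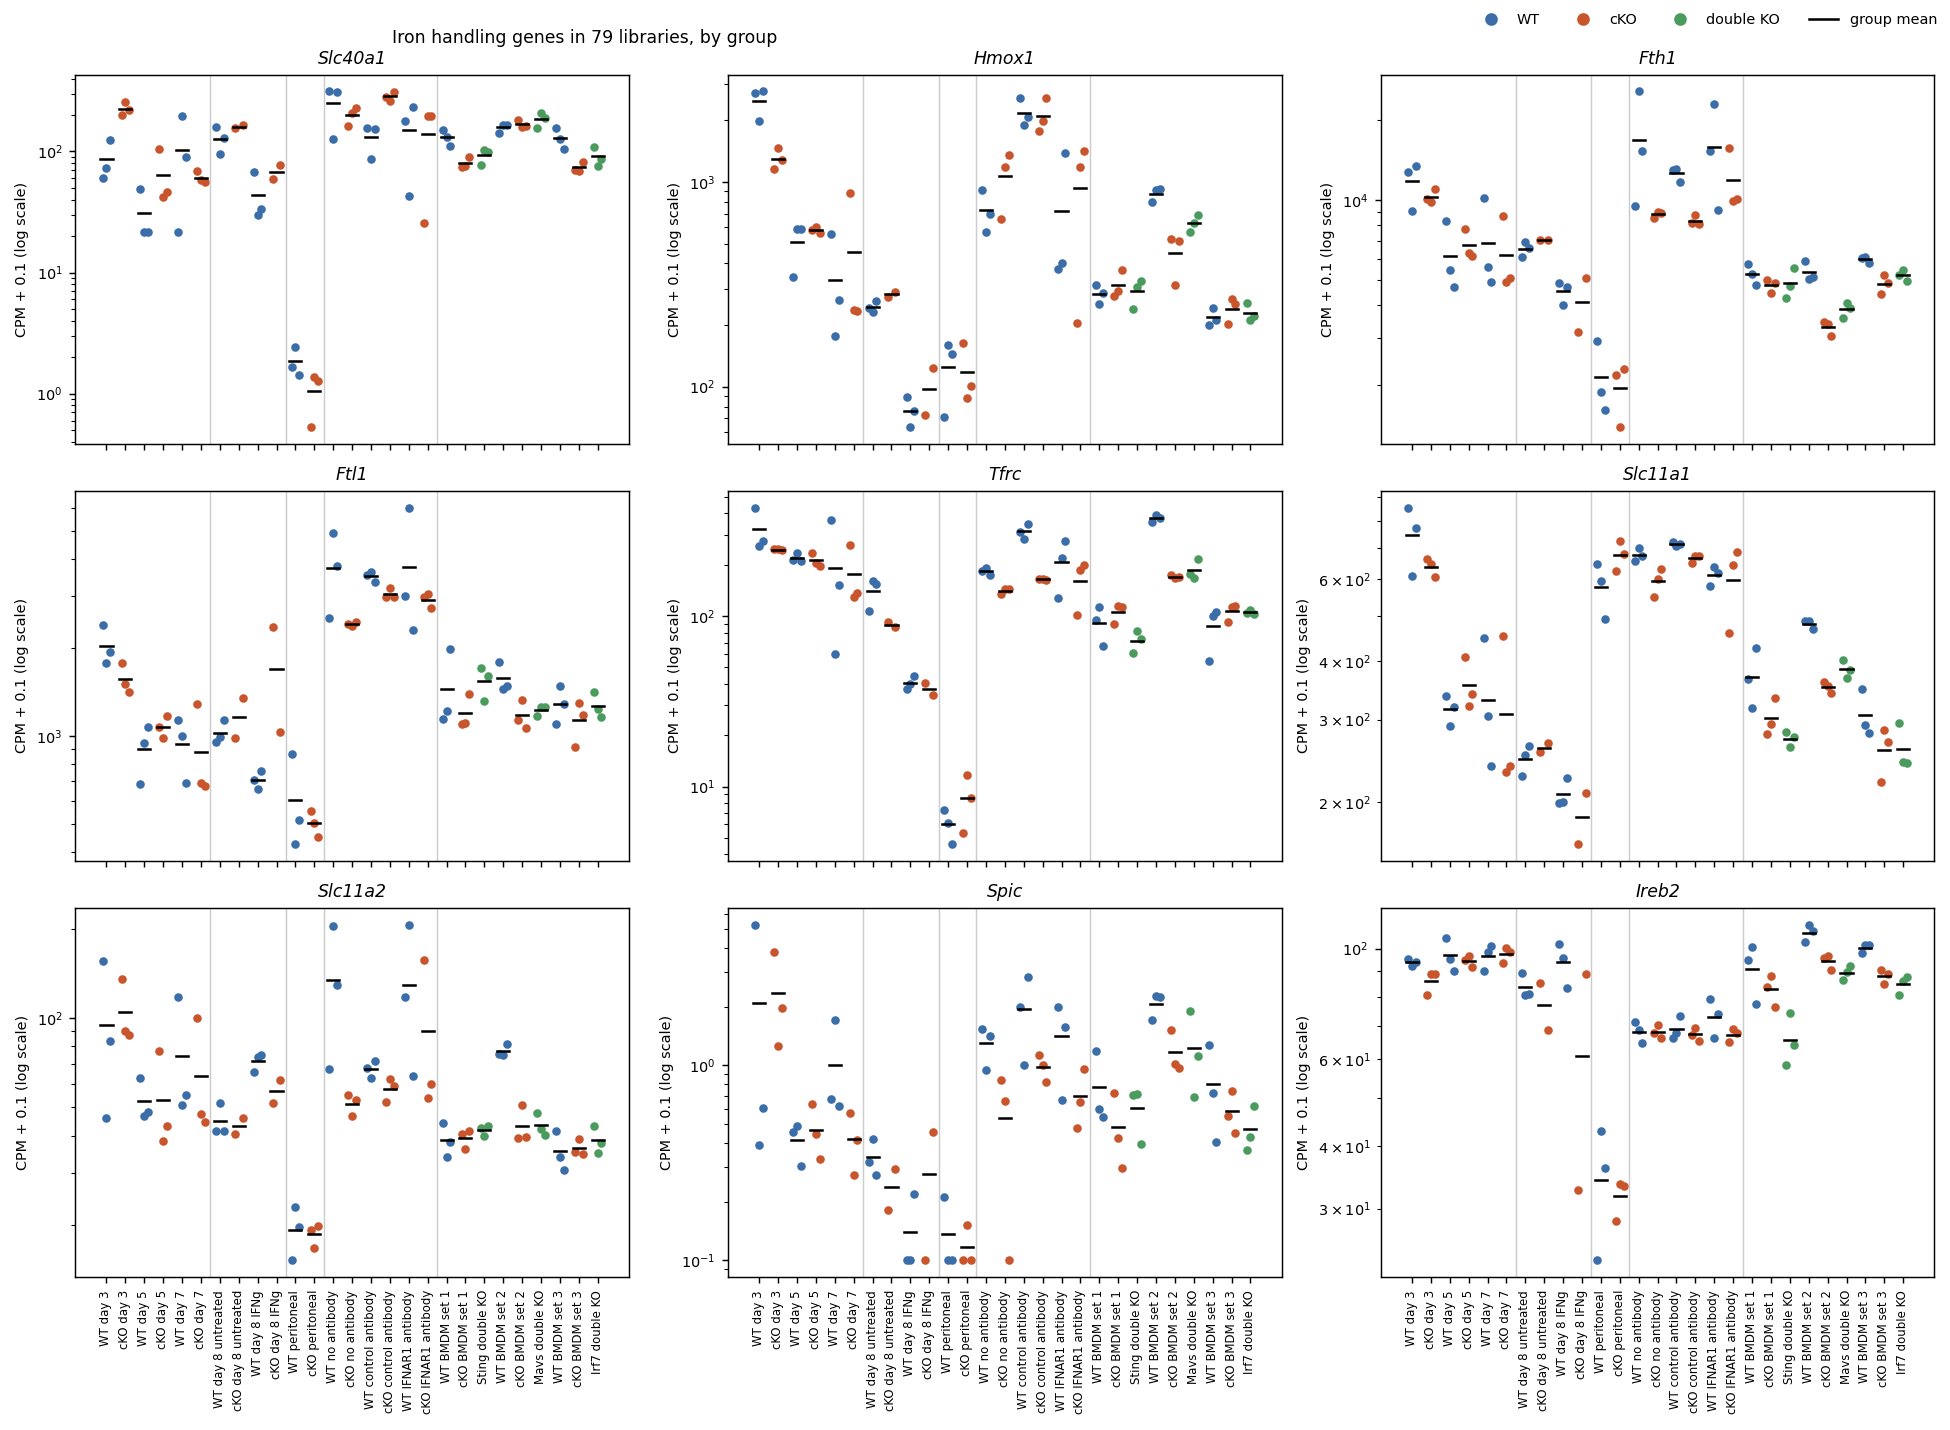
Each panel plots 1 member: the vertical axis is CPM plus 0.1 on a log scale, the horizontal axis lists the 27 groups, points are libraries coloured by genotype, black bars are group means and grey lines part the experiments. Slc40a1 and Tfrc sit lowest in the peritoneal groups, at 0.428 to 2.34 and 4.51 to 11.6 CPM, and Ireb2 stays at 80.5 to 105 CPM through the time course.

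The time course asked how the transcripts change as marrow cells become macrophages. In WT, Hmox1, Ftl1 and Slc11a1 fell after day 3 and stayed low, and the other members did not pass the test. Hmox1 stood at 2710, 1982 and 2771 CPM in the 3 WT libraries of day 3, at 342, 587 and 589 CPM on day 5 and at 557, 176 and 265 CPM on day 7. Every later library lay below every day 3 library. Ftl1 stood at 2388, 1766 and 1938 CPM on day 3, at 683, 947 and 1073 CPM on day 5 and at 1132, 1001 and 688 CPM on day 7, again with no overlap. Slc11a1 went from 852, 609 and 773 CPM to 337, 291 and 319 CPM and then to 448, 306 and 238 CPM.

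From day 3 to day 7 in WT, Hmox1 fell by 2.90 on the log2 scale (SE 0.49, adjusted p = 0.000963), Ftl1 fell by 1.11 (SE 0.25, adjusted p = 0.00626) and Slc11a1 fell by 1.17 (SE 0.25, adjusted p = 0.00431). These 3 of 9 members were called against 23.9% of all genes tested, by the quasi-likelihood test of edgeR at a Benjamini-Hochberg adjusted p of 0.05 over all genes, as everywhere below. From day 3 to day 5 the same 3 of 9 were called, against 2.64% of all genes: Hmox1 fell by 2.30 (SE 0.47, adjusted p = 0.0202), Ftl1 fell by 1.17 (SE 0.25, adjusted p = 0.0248) and Slc11a1 fell by 1.24 (SE 0.25, adjusted p = 0.0189). Leaving out single libraries took these day 5 calls away in 4 or 5 of 6 cases, and the day 7 calls in none. Between days 5 and 7 no member was called, against 0.238% of all genes. Only Slc40a1 had an unadjusted p under 0.05 there, and DESeq2 called it (log2 1.72, adjusted p = 0.0339).

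In cKO cultures Hmox1, Ftl1 and Slc11a1 fell too, and Slc40a1 and Spic fell with them. Slc40a1 stood at 199, 256 and 222 CPM in the cKO libraries of day 3, at 105, 41.8 and 45.8 CPM on day 5 and at 69.0, 57.9 and 55.6 CPM on day 7, so that all day 3 libraries lay above all later ones. Hmox1 stood at 1156, 1466 and 1274 CPM on day 3, at 584, 604 and 564 CPM on day 5 and at 886, 237 and 235 CPM on day 7. From day 3 to day 7, 5 of 9 members were called in cKO, against 14% of all genes: Slc40a1 fell by 1.89 (SE 0.57, adjusted p = 0.0363), Hmox1 by 1.52 (SE 0.46, adjusted p = 0.0379), Ftl1 by 0.82 (SE 0.25, adjusted p = 0.0393), Slc11a1 by 1.05 (SE 0.25, adjusted p = 0.0108) and Spic by 2.79 (SE 0.89, adjusted p = 0.0466). Spic moved at low levels, from 3.71, 1.16 and 1.88 CPM to 0.470, 0.176 and 0.315 CPM. Leaving out single libraries ended these calls in 2 of 6 cases for Slc11a1, in 5 for Hmox1 and Ftl1 and in all 6 for Slc40a1 and Spic.

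The cKO libraries of days 3 and 7 deviated together by replicate number, and with that number as a block Slc11a2 (log2 −0.79, adjusted p = 0.015) and Fth1 (log2 −0.79, adjusted p = 0.0264) were called as well. From day 3 to day 5 no member was called in cKO, against 3.59% of all genes. The day 3 and day 5 libraries did not overlap for all 9 members, but the share of all genes without overlap was not counted. There 6 members had an unadjusted p under 0.05, and DESeq2 called Slc40a1, Slc11a1 and Spic. From day 5 to day 7 none of the 9 was called in cKO, against 0.0564% of all genes, none had an unadjusted p under 0.05 and DESeq2 called none. The summed neutrophil markers lay between 1871 and 3422 CPM in WT on day 3 and between 110 and 180 CPM on day 7, and in cKO between 2956 and 4449 CPM and then between 129 and 333 CPM, with all 10 markers detected on each day. Their part in these changes was not tested, and fewer cells of a type cannot be told from less RNA per cell in such bulk libraries.

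**Figure D2:**
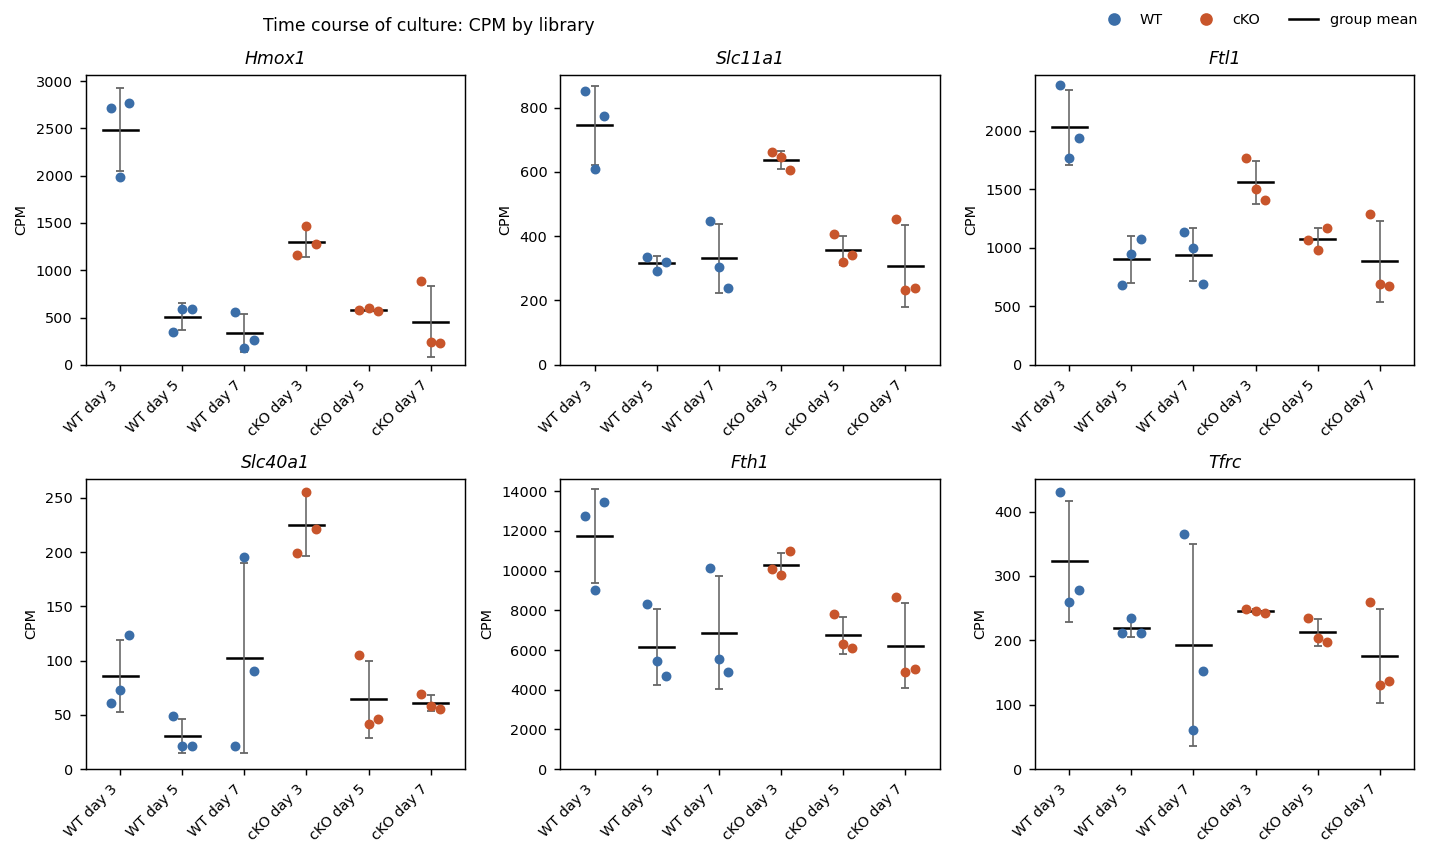
Each panel plots CPM of 1 member on a linear axis from 0 for the 18 time course libraries, grouped by genotype and day; points are libraries, black bars are means and grey lines the SD. Hmox1 in WT drops from 1982 to 2771 CPM on day 3 to 176 to 557 CPM on day 7, and Slc40a1 in cKO starts at 199 to 256 CPM, above the WT libraries of that day.

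Comparing cKO with WT on each day asked whether loss of H3.3 shifted these transcripts during differentiation. On day 3, Slc40a1 was at 60.7, 72.9 and 124 CPM in WT, below all cKO libraries (log2 1.39, SE 0.56, adjusted p = 0.151), and Hmox1 was lower in all cKO libraries than in any WT library (log2 −0.94, SE 0.46, adjusted p = 0.243). Neither passed the test, and none of the 9 members was called on day 3, against 7.73% of all genes. The groups did not overlap for 5 members on that day, a count for which the share over all genes was not taken. Of the members, 1 had an unadjusted p under 0.05. When the model held only the day 3 libraries, Slc40a1 (adjusted p = 0.0103) and Hmox1 (adjusted p = 0.00621) passed. None was called on day 5, against 2.83% of all genes, or on day 7, against 1.4%, with no unadjusted p under 0.05 on either day. DESeq2 called no member on any of the 3 days.

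The first library of WT day 3 held 5.18 CPM of Spic against 0.293 and 0.505 CPM in the others, and without it Spic passed (log2 2.44, adjusted p = 0.0398). The first libraries of day 7 stood apart in both genotypes: Hmox1 was at 557 CPM in WT and 886 CPM in cKO, and Tfrc at 365 and 260 CPM, against at most 265 and 152 CPM in the other day 7 libraries. Without the first WT library, Tfrc passed between WT days 7 and 3 (log2 −1.61, adjusted p = 0.00437). The interaction terms, which test whether the cKO difference itself changed between days, called none of the 9 members for day 5 against day 3, where 0% of all genes were called, or for day 7 against day 3, where 0.0439% were. The counts with an unadjusted p under 0.05 were 0 and 2, and DESeq2 called none. Without WT day 7 replicate 1, Slc40a1 passed in the second of these (log2 −2.62, adjusted p = 0.0491).

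In WT BMDMs, IFNg, which activates macrophages against intracellular microbes, lowered the iron importer, the exporter and haem oxygenase and raised DMT1. Tfrc stood at 107, 161 and 154 CPM in untreated WT BMDMs on day 8 and at 37.3, 39.9 and 44.6 CPM after IFNg. Hmox1 went from 242, 232 and 263 CPM to 89.4, 63.3 and 76.0 CPM. Slc40a1 went from 158, 95.2 and 129 CPM to 67.3, 29.6 and 33.4 CPM, and in all 3 genes every treated library lay below every untreated one. Slc11a2 moved the other way, from 41.4, 51.3 and 41.5 CPM to 65.3, 73.7 and 75.0 CPM. In WT, Tfrc fell by 1.79 (log2, SE 0.17, adjusted p = 2.9e-05), Hmox1 by 1.69 (SE 0.20, adjusted p = 0.00012) and Slc40a1 by 1.55 (SE 0.30, adjusted p = 0.00247), while Slc11a2 rose by 0.67 (SE 0.14, adjusted p = 0.00363).

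These 4 of the 8 members tested were called against 40.1% of all genes, a share close to the background of this strong treatment. The 4 calls held in every fit that left out a library and under every other setting tried. Spic was too low to test on day 8, at 0 to 0.353 CPM. Fth1 stood at 6089, 6903 and 6570 CPM untreated and at 4850, 4004 and 4698 CPM after IFNg, without overlap (log2 −0.53, SE 0.20, adjusted p = 0.0546). It passed with DESeq2 (adjusted p = 0.0166).

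In cKO, Tfrc stood at 92.0 and 86.3 CPM untreated and at 40.4 and 34.2 CPM after IFNg, and fell by 1.28 (SE 0.22, adjusted p = 0.00159). Hmox1 went from 273 and 292 CPM to 72.4 and 123.3 CPM and fell by 1.51 (SE 0.25, adjusted p = 0.00127). Slc40a1 went from 156 and 166 CPM to 58.6 and 76.7 CPM and fell by 1.23 (SE 0.37, adjusted p = 0.0277). Fth1 went from 7049 and 7055 CPM to 3164 and 5070 CPM and fell by 0.78 (SE 0.24, adjusted p = 0.0319). These 4 of 8 were called against 33.6% of all genes, and the calls of Slc40a1 and Fth1 were lost in 3 of the 4 fits that left out a library, the first IFNg library among them (log2 −1.04 and −0.45). With only the groups compared, Slc40a1, Fth1 and Hmox1 lost their calls (adjusted p = 0.0585 for Hmox1), and Tfrc kept its call in each fit run. Slc11a2 was not called in cKO, at means of 6.77 CPM per kb untreated and 8.88 CPM per kb after IFNg. The test of the difference between the genotypes' IFNg responses called none of the 8, against 0% of all genes. Only Ftl1 had an unadjusted p under 0.05, and DESeq2 called none.

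**Figure D3:**
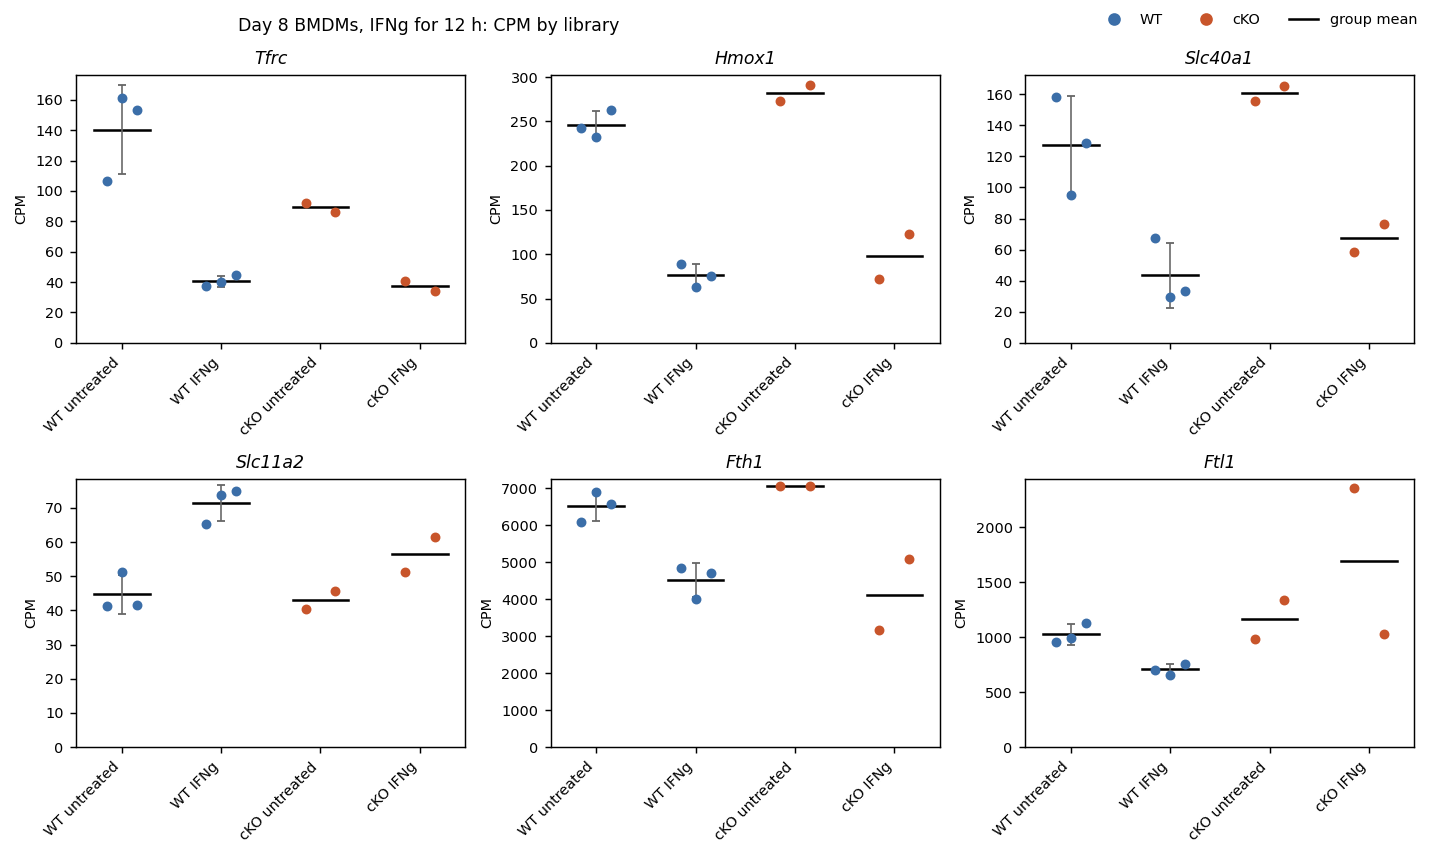
Each panel plots CPM of 1 member on a linear axis from 0 in the 10 day 8 libraries used; points are libraries, black bars are means and grey lines the SD where a group has 3 libraries. Tfrc, Hmox1 and Slc40a1 sit lower after 12 h of IFNg in both genotypes. Slc11a2 sits higher but was called only in WT. The cKO IFNg libraries of Ftl1 stand apart at 2353 and 1027 CPM with TMM scaling (1078 and 913 CPM of the plain total).

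Comparing the genotypes on day 8, no member was called in untreated cells, against 0.612% of all genes. Only Tfrc had an unadjusted p under 0.05 and was lower in both cKO libraries than in any WT library (log2 −0.65, SE 0.19, adjusted p = 0.302). After IFNg, 1 of 8 members was called, against 4.83% of all genes: Ftl1 was at 704, 660 and 758 CPM in WT and at 2353 and 1027 CPM in cKO (log2 1.26, SE 0.29, adjusted p = 0.0416). The call was lost in 4 of the 5 fits that left out a library. The first cKO library was the shallowest of the series, had the lowest Ireb2 of the cultures at 32.6 CPM, had 57.1% of its reads unmapped against at most 18.3% in the others of day 8, and carried stromal markers summing to 353 CPM against 55.9 CPM in the second. Relative to the plain total, with no TMM factor, the libraries held 1078 and 913 CPM of Ftl1 and 1450 and 4511 CPM of Fth1, so the ratio between the libraries depends on the factor. The part of the markers and of read quality in the result was not tested. A fit without either cKO library leaves 1 in its arm, which is then assumed to vary like the other groups. Without the first library the difference in Ftl1 was 0.56 and did not pass, and Hmox1 differed by 0.71 (adjusted p = 0.0245). Without the second, the difference in Ftl1 was 1.71. DESeq2 called 1 member across both comparisons.

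Peritoneal macrophages, taken from the body and not grown in culture, held little ferroportin and transferrin receptor mRNA, while NRAMP1 was within the range of the cultures. Fth1 at 1387 to 2941 CPM and Slc11a2 at 15.1 to 22.9 CPM also lay below every culture library, where the minima were 3070 and 30.5 CPM. Ireb2, at 23.5 to 42.9 CPM, lay below all culture libraries but the shallowest, at 32.6 CPM. Slc40a1 was at 1.57, 2.34 and 1.32 CPM in WT and at 0.428, 1.27 and 1.17 CPM in cKO. Tfrc was at 7.19, 6.03 and 4.51 CPM in WT and at 5.26, 11.6 and 8.45 CPM in cKO, and Slc11a1 at 647, 594 and 493 CPM and 623, 725 and 678 CPM. None of the 8 members tested was called, against 0.971% of all genes, none had an unadjusted p under 0.05 and DESeq2 called none. The largest difference was that of Slc40a1 (log2 −0.91, SE 0.50, adjusted p = 0.687). The 8 peritoneal macrophage markers summed to 26266 to 31115 CPM in these libraries and to at most 35.5 CPM in the cultures. Near-copies of Ftl1 in the annotation took 13.2 to 20.5% of the counts of Ftl1 and its copies here, against at most 0.404% in the cultures, so Ftl1 is uncertain in the peritoneal libraries. Peritoneal and culture libraries were made with different kits and were not tested against each other.

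The antibody experiment asked what signalling through IFNAR1 adds to the cKO state. Among the members only Tfrc was called between genotypes, and only under the control antibody. Tfrc stood there at 310, 285 and 348 CPM in WT and at 165, 165 and 162 CPM in cKO (log2 −0.94, SE 0.24, adjusted p = 0.0373). All cKO libraries lay below all WT libraries, but the call was lost in each of the 6 fits that left out a library. Neutrophil markers summed to 60.6 to 78.5 CPM in WT and to 104 to 213 CPM in cKO of this arm, with 7 and 9 of 10 detected and Ly6g at 0 in both; their part in the result was not tested. That 1 of 9 stood against 4.45% of all genes. Without antibody Tfrc was at 185, 191 and 175 CPM in WT and at 135, 143 and 143 CPM in cKO, also without overlap (log2 −0.38, SE 0.24, adjusted p = 0.305). None of the 9 was called without antibody, against 7.1% of all genes, or with the IFNAR1 antibody, against 0.675%. The counts with an unadjusted p under 0.05 were 3 and 0, and DESeq2 called Fth1 and Slc11a2 without antibody. With only the 6 control antibody libraries in the model, Fth1 (log2 −0.58, adjusted p = 0.00183) and Slc40a1 (log2 1.13, adjusted p = 0.00297) passed too.

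Between the arms no member passed in the full model. In WT, control antibody against none gave 0 of 9 against 8.9% of all genes, and IFNAR1 antibody against control antibody 0 of 9 against 9.89%. In cKO the same steps gave 0 of 9 against 1.46% and 0 of 9 against 4.03%. Hmox1 stood at 917, 572 and 694 CPM in WT without antibody, at 2579, 1894 and 2071 CPM with the control antibody and at 376, 401 and 1390 CPM with the IFNAR1 antibody. The control arm did not overlap the others, at log2 differences of 1.58 against none (adjusted p = 0.0886) and −1.59 for IFNAR1 against control antibody (adjusted p = 0.0761), and DESeq2 called both. Mean Hmox1 in cKO was 610 ± 208, 1204 ± 233 and 533 ± 366 CPM per kb with no, control and IFNAR1 antibody. With only the groups compared, edgeR called Hmox1 for control antibody against none in cKO (log2 0.99, adjusted p = 0.0344). Slc40a1, Ftl1 and Tfrc were called there too. Tfrc differed between WT control antibody and none by 0.78 (SE 0.24, adjusted p = 0.0541), and passed with the replicate number as a block (log2 0.77, adjusted p = 0.0377), a pairing that the libraries of these arms bore out. In each WT step 3 members had an unadjusted p under 0.05, and in each cKO step none did. The interaction terms called 0 of 9 for IFNAR1 against control antibody, where 0% of all genes were called, and 0 of 9 for control antibody against none, also 0%. No member had an unadjusted p under 0.05 in them and DESeq2 called none.

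Single libraries stood apart within the arms for the ferritin heavy chain and DMT1 together. Fth1 and Slc11a2 were at 25646 and 204 CPM in the second WT library without antibody, at 22907 and 206 CPM in the second WT library with IFNAR1 antibody and at 15671 and 157 CPM in the first cKO library with IFNAR1 antibody. Their group partners lay at 9184 to 15319 CPM for Fth1 and at 53.6 to 129 CPM for Slc11a2. The last of these libraries also held the least Slc40a1 of the experiment, 25.4 CPM, and the least Hmox1, 206 CPM.

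The 3 sets of BMDMs, each with 3 WT and 3 cKO libraries, gave a different picture in set 2 from that in sets 1 and 3. In set 1, Slc40a1 was at 150.5, 131 and 111 CPM in WT and at 74.3, 75.4 and 90.6 CPM in cKO, without overlap (log2 −0.71, SE 0.15, adjusted p = 0.000782). In set 3 it was at 157, 126 and 105 CPM in WT and at 70.1, 69.1 and 82.4 CPM in cKO (log2 −0.81, SE 0.15, adjusted p = 0.000195). In set 2 the groups overlapped, at 143, 165 and 165 CPM in WT and 183, 158 and 162 CPM in cKO (log2 0.09, SE 0.15, adjusted p = 0.751).

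The remaining calls of set 1 and set 3 were smaller. Slc11a1 was at 367, 317 and 428 CPM in WT and at 279, 294 and 334 CPM in cKO of set 1 (log2 −0.29, SE 0.11, adjusted p = 0.0362). The groups overlapped, and the call was lost in 4 of 6 fits that left out a library, with 1 strand column, with a replicate block and with only the groups compared. Fth1 was at 6037, 6080 and 5794 CPM in WT and at 4428, 5202 and 4840 CPM in cKO of set 3, without overlap (log2 −0.31, SE 0.10, adjusted p = 0.0166), and lost its call without the first cKO library and with only the groups compared. Thus 2 of 9 members were called in set 1, against 34.7% of all genes, and 2 of 9 in set 3, against 34.9%, both shares below the background.

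In set 2, 5 of 9 members were lower in cKO, against 21% of all genes called in that set. Tfrc was at 356, 391 and 374 CPM in WT and at 174, 168 and 169 CPM in cKO (log2 −1.13, SE 0.18, adjusted p = 5.58e-05). Hmox1 was at 799, 910 and 925 CPM in WT and at 528, 314 and 515 CPM in cKO (log2 −0.96, SE 0.16, adjusted p = 8.47e-05). Slc11a2 was at 75.5, 74.8 and 81.4 CPM in WT and at 39.2, 50.8 and 39.5 CPM in cKO (log2 −0.84, SE 0.12, adjusted p = 7.6e-06). In all 3 genes each cKO library lay below each WT library. Fth1 was at 5879, 5048 and 5110 CPM in WT and at 3447, 3399 and 3070 CPM in cKO (log2 −0.69, SE 0.10, adjusted p = 1.07e-05), and Slc11a1 at 488, 488 and 469 CPM and 360, 354 and 342 CPM (log2 −0.45, SE 0.11, adjusted p = 0.00302). None of these 5 calls was lost when a library was left out or under the other settings.

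**Figure D4:**
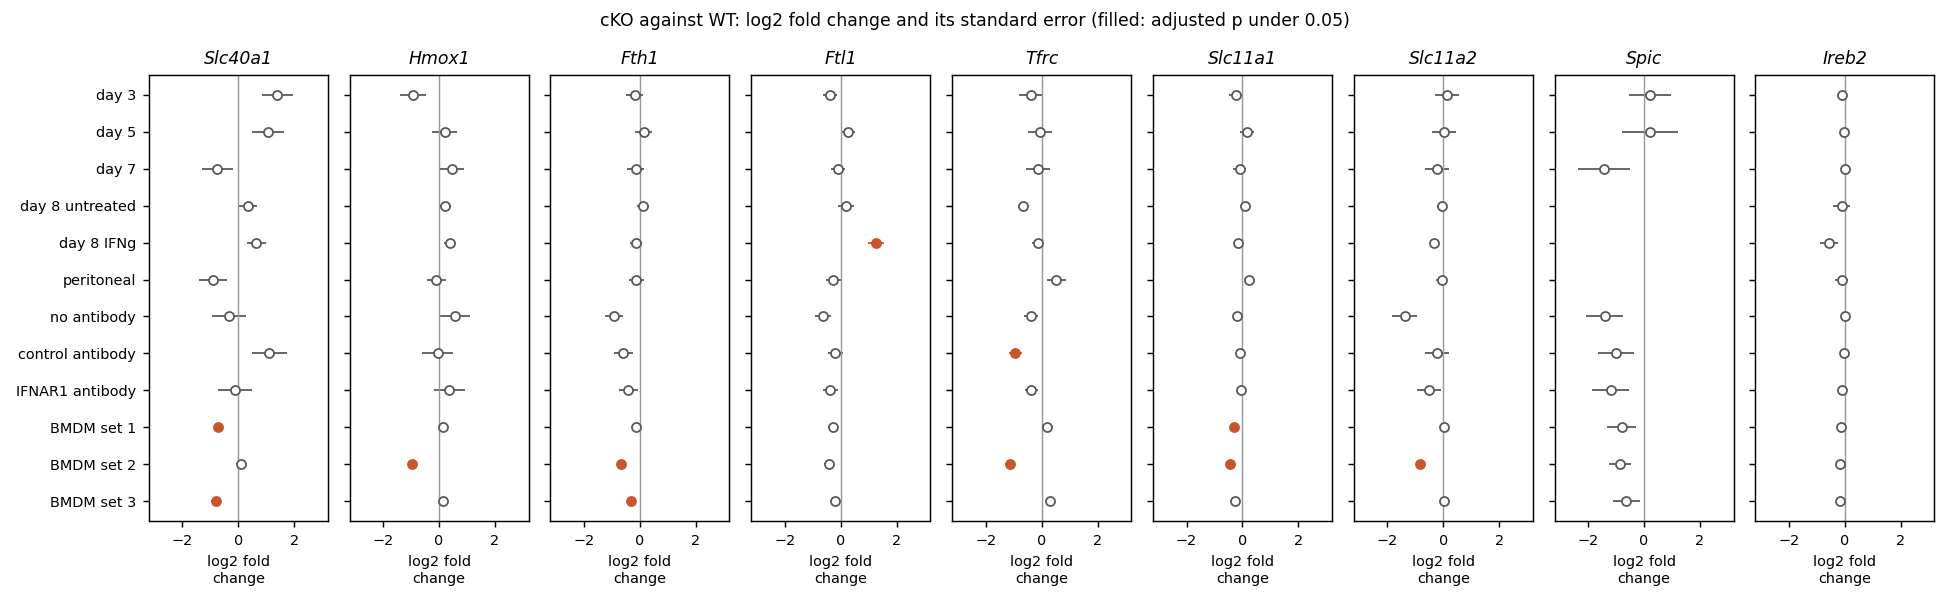
Each panel plots 1 member: the horizontal axis is the log2 fold change of cKO over WT, rows are the 12 comparisons, whiskers are standard errors and filled points have an adjusted p under 0.05. Set 2 stands apart from sets 1 and 3 in Slc40a1, at 0.09 against −0.71 and −0.81, and in Tfrc, at −1.13 against 0.21 and 0.30; Spic has no point where it was not tested.

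The difference between sets was then tested as an interaction, a contrast added after the data were seen. The cKO difference of set 2 departed from that of set 1 in 5 of 9 members, against 20% of all genes: Tfrc (log2 −1.34, SE 0.26, adjusted p = 0.000728), Hmox1 (log2 −1.10, SE 0.23, adjusted p = 0.00132), Slc11a2 (log2 −0.86, SE 0.17, adjusted p = 0.000681), Fth1 (log2 −0.55, SE 0.14, adjusted p = 0.00613) and Slc40a1 (log2 0.79, SE 0.21, adjusted p = 0.0103). Against set 3 it departed in 4 of 9, against 19.5% of all genes, the same genes but Fth1 (adjusted p = 0.0519). Sets 3 and 1 were not told apart for any member, against 0% of all genes. No member had an unadjusted p under 0.05 in that comparison and DESeq2 called none.

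The groups that stood apart in set 2 were the WT libraries for Hmox1, the libraries of both genotypes for Tfrc and the cKO libraries for Slc40a1. In WT, Hmox1 was at 799 to 925 CPM in set 2 and at 200 to 313 CPM in sets 1 and 3, and Tfrc at 356 to 391 CPM in set 2 and at 54.5 to 113 CPM in the others. In cKO, Hmox1 was at 314 to 528 CPM in set 2 and at 202 to 370 CPM in the others, and Tfrc at 168 to 174 and at 90.2 to 114 CPM. Slc40a1 was at 143 to 165 CPM in WT set 2 and at 105 to 157 CPM in the other WT sets, which overlap, but at 158 to 183 CPM in cKO set 2 against 69.1 to 90.6 CPM in the other cKO sets. Deviations of same-numbered WT libraries of sets 1 and 3 from the mean of the 3 sets correlated at r = 0.615, 0.576 and 0.298, and those of the cKO libraries at 0.048, 0.201 and 0.012. Differently numbered libraries of these sets correlated at −0.083 to 0.326 in WT and at −0.349 to 0.067 in cKO. The mean used here includes set 2, which stood apart. Whether sets 1 and 3 are independent cannot be told apart from shared cultures by the labels. Summed neutrophil markers were 265 to 387 CPM in the cKO libraries of sets 1 and 3 against 105 to 169 CPM in WT, and 189 to 211 CPM against 138 to 217 CPM in set 2; their part was not tested.

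**Figure D5:**
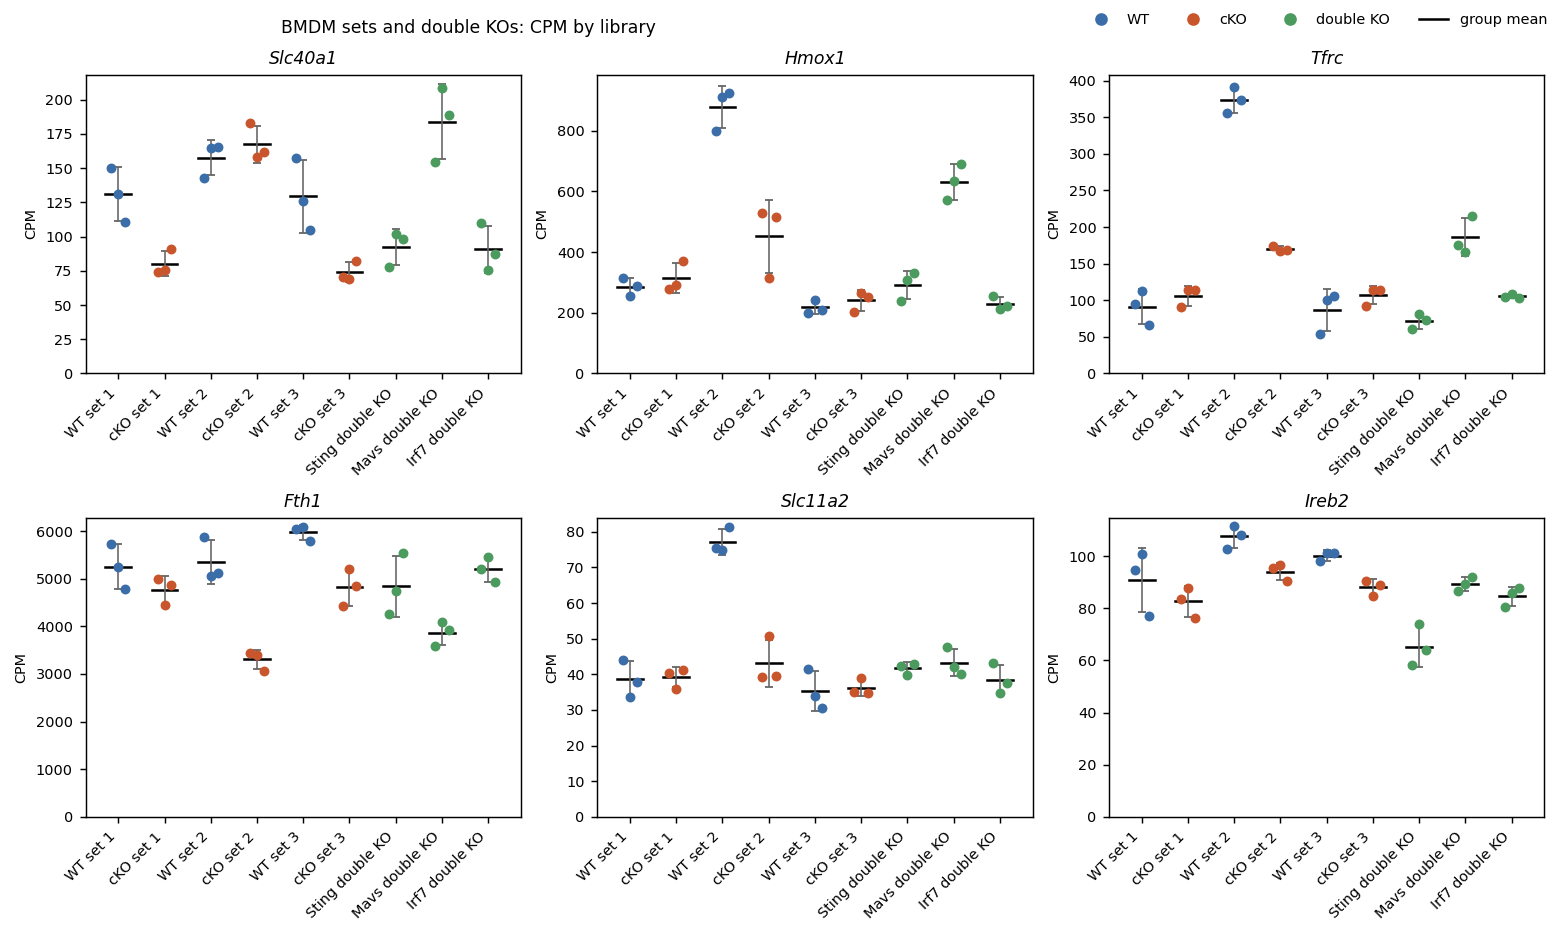
Each panel plots CPM of 1 member on a linear axis from 0 in the 27 libraries of the BMDM sets and double KOs; points are libraries, black bars are means and grey lines the SD. WT set 2 lies above all other groups in Hmox1, Tfrc and Slc11a2, and the Sting double KO has the lowest Ireb2, at 58.2 to 74.0 CPM.

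The double KOs asked whether the cKO state depends on Sting, Mavs or Irf7. The labels do not pair a double KO with a set, so each was compared with the mean of the 3 cKO sets and of the 3 WT sets. In sample order set 1 stands before the Sting, set 2 before the Mavs and set 3 before the Irf7 double KO. Set 3 and the Irf7 double KO were also counted on a list of 54146 genes, the others on 55536. A difference from the mean can therefore also be one between sets, which the single sets below bear on. In the Sting double KO, Ireb2 was at 58.2, 74.0 and 63.9 CPM, below the 76.3 to 96.5 CPM of every cKO library (log2 −0.43, SE 0.07, adjusted p = 7.28e-05). Tfrc was at 60.4, 81.2 and 72.9 CPM, below the 90.2 to 174 CPM of the cKO libraries (log2 −0.80, SE 0.16, adjusted p = 0.000357). Both calls held against each cKO set alone. Stromal markers summed to 164 to 202 CPM in the Sting double KO, to 83.2 to 295 CPM in the group labelled Mavs double KO and to 29.7 to 48.2 CPM in that labelled Irf7, against 23.7 to 70.3 CPM in the cKO sets. Proliferation genes summed to 1871 to 2006 CPM in the Sting double KO against 2212 to 2830 CPM in the cKO sets, and the part of either list in the results was not tested. Ftl1 was higher (log2 0.40, SE 0.13, adjusted p = 0.0226), with overlap and not against set 1 or set 2 alone. That gave 3 of 9, against 36.1% of all genes.

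In the group labelled Mavs double KO, 4 of 9 members were higher than in the cKO sets, against 8.79% of all genes: Hmox1 (log2 0.96, SE 0.12, adjusted p = 1.51e-05), Slc40a1 (log2 0.88, SE 0.12, adjusted p = 2.32e-05), Tfrc (log2 0.58, SE 0.14, adjusted p = 0.0111) and Slc11a1 (log2 0.35, SE 0.09, adjusted p = 0.00986). Hmox1 was at 570, 633 and 689 CPM there, above every cKO library, and Slc40a1 at 155, 208 and 189 CPM, overlapping the 158 to 183 CPM of cKO set 2. None of the 4 was called against cKO set 2 alone. In the group labelled Irf7 double KO, 2 of 9 were called, against 9.85% of all genes: Hmox1 was lower (log2 −0.50, SE 0.13, adjusted p = 0.0185) and Fth1 higher (log2 0.30, SE 0.08, adjusted p = 0.0178). Neither was called against set 1 or set 3 alone.

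Against the WT sets, which these comparisons share, the Sting double KO had 5 of 9 members lower, against 40.3% of all genes: Tfrc (log2 −1.01), Ireb2 (log2 −0.60), Slc40a1 (log2 −0.58), Slc11a1 (log2 −0.48) and Hmox1 (log2 −0.38). Hmox1 turned to 0.039 and 0.42 against sets 1 and 3 alone, where Tfrc was not called either. Ireb2 and Slc40a1 did not overlap with WT and were called against each set alone, with adjusted p of 4.15e-07 and 0.000719 over all sets. The group labelled Mavs double KO had 4 of 9 called, against 42.6%: Fth1 was lower (log2 −0.51, SE 0.08, adjusted p = 1.97e-05), at 3588, 4089 and 3918 CPM against 4777 to 6080 CPM, and held against each set, while Hmox1 (log2 0.73), Slc40a1 (log2 0.41) and Tfrc (log2 0.37) were higher. Slc40a1 was not called against set 2 alone, and Hmox1 and Tfrc turned to −0.48 and −1.01 against set 2 alone. The group labelled Irf7 double KO had 7 of 9 lower, against 31.5%: Spic (log2 −1.41), Hmox1 (log2 −0.72), Slc40a1 (log2 −0.61), Slc11a1 (log2 −0.55), Tfrc (log2 −0.45), Slc11a2 (log2 −0.29) and Ireb2 (log2 −0.23). No member was free of overlap there, and of the 7 only Slc40a1 was called against each WT set alone. Hmox1 and Slc11a2 turned to 0.07 and 0.12 against set 3 alone, and Tfrc to 0.20 and 0.28 against sets 1 and 3.

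Other genes of iron and haem handling were counted in 4 lists of 56 symbols, for uptake and transport, haem handling, storage and sensing, and mitochondria and iron-sulfur clusters. In the BMDM sets more of them were lower than higher in cKO: 17 lower and 5 higher of 45 tested in set 1 (48.9%), 10 lower and 3 higher in set 2 (28.9%) and 18 lower and 5 higher in set 3 (51.1%), against 34.7%, 21% and 34.9% of all genes called in these sets. The medians were −0.06, −0.13 and −0.07 on the log2 scale, beside −0.03, −0.01 and −0.05 over all genes. Of the 15 haem genes tested, 8, 6 and 7 were lower and 1, 0 and 1 higher, and of the 9 storage and sensing genes 4, 1 and 5 were lower and 0, 2 and 0 higher. The other lists were nearer balance. Of 8 uptake and transport genes tested, 2, 2 and 3 were lower and 2, 0 and 2 higher. Of 13 mitochondrial and iron-sulfur genes, 3, 1 and 3 were lower and 2, 1 and 2 higher. The split of all genes into lower and higher is not given. Blvrb and Blvra encode biliverdin reductases, which act after haem oxygenase, and Blvra was lower in all 3 sets (log2 −0.30, −0.52 and −0.34). Alas1, the first enzyme of haem synthesis, was lower in all 3 (log2 −0.61, −1.10 and −0.55), as was Slc48a1, which carries haem out of the phagolysosome (log2 −0.40, −0.69 and −0.33).

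Lrp1, Cd163 and Aco1 were called in the most of the 9 comparisons of cKO with WT, 5, 4 and 4. Cd163, the receptor for haemoglobin bound to haptoglobin, was called lower in 4 of 9 comparisons: in sets 1, 2 and 3 (log2 −1.35, −0.96 and −1.55) and in peritoneal macrophages (log2 −2.29, SE 0.37, adjusted p = 0.0315), where it ranged from 25.3 to 56.2 CPM in WT and from 5.26 to 11.3 CPM in cKO. It was not called in the antibody experiment, where its mean was 17.1 CPM in WT and 31.1 CPM in cKO without antibody (log2 0.86, adjusted p = 0.254) and 17.2 and 29.8 CPM with the IFNAR1 antibody (log2 0.78, adjusted p = 0.54). Lrp1, which binds haem-hemopexin among many ligands, was lower in 5 of 9: on day 3 (log2 −1.14, adjusted p = 0.00751), on day 5 (log2 −0.95, adjusted p = 0.0427) and in the 3 sets (log2 −0.37, −0.55 and −0.31). Aco1, iron regulatory protein 1, was lower on day 3 (log2 −0.42, adjusted p = 0.00983) and in the 3 sets (log2 −0.35, −0.46 and −0.37). Slc25a37, the mitochondrial importer mitoferrin 1, was lower without antibody and in sets 1 and 3. Hfe, which binds the transferrin receptor, and Hscb, a co-chaperone of iron-sulfur cluster assembly, were lower in sets 1 and 3 and higher in set 2, at log2 −0.81, −0.76 and 0.50 for Hfe and −0.39, −0.42 and 0.41 for Hscb. Their set 2 differences departed from those of sets 1 and 3 (adjusted p of 2.26e-05 and 3.07e-05 for Hfe, 0.000595 and 0.000429 for Hscb).

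After IFNg, 8 list genes were higher and 10 lower of 42 tested in WT and 7 higher and 11 lower in cKO, which is 42.9% in each against 40.1% and 33.6% of all genes. Cd163 fell by 3.52 in WT (SE 0.18, adjusted p = 6.23e-07) and by 3.98 in cKO (SE 0.26, adjusted p = 6.54e-06), from 26.2 to 28.8 CPM to 2.08 to 2.57 CPM in the WT libraries. Lrp1 fell in both, with log2 −1.77 in WT and −1.28 in cKO. Slc25a37 rose by 1.01 and 0.81. Over the time course 12 of 48 list genes were called between days 7 and 3, 6 higher and 6 lower in WT and 3 higher and 9 lower in cKO, which is 25% in each against 23.9% and 14% of all genes. Cd163 rose by 2.06 in both genotypes, and Alas1 fell in both (log2 −0.97 in WT and −1.41 in cKO). Hmox1 and both ferritin genes also answer to the regulators NRF2 and BACH1. Of 12 listed targets of these, 10 fell between days 3 and 7 in WT (median log2 −1.90), against 23.9% of all genes. In cKO 7 fell (median log2 −0.87), against 14%. Comparing cKO with WT, 5 targets were higher and 1 lower in set 1, 2 and 2 in set 2, and 6 and 2 in set 3. All genes called in these sets were 34.7%, 21% and 34.9%. The part of these regulators was not tested.

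The transcripts most like each member across the 27 groups were ranked by Pearson correlation of group means, centred within each experiment, among 10431 genes. Groups of an experiment share reagents and depth, and these values are a description. Hmox1 went most closely with Abhd11 (r = 0.912) and Gclm (r = 0.907), and Slc11a1 with Slc48a1 (r = 0.932) and Gclm (r = 0.849). Tfrc went with Adss (r = 0.912) and Lrrc58 (r = 0.894), Ireb2 with Abi1 (r = 0.929) and Zfx (r = 0.906), and Slc11a2 with Acbd3 (r = 0.872) and Alkbh5 (r = 0.846). Fth1 went with Tex2 (r = 0.869) and Samd8 (r = 0.839), Ftl1 with Ndufv1 (r = 0.902) and Dcun1d3 (r = 0.844), and Slc40a1 with Clec4a1 (r = 0.757) and Smox (r = 0.742). Among the members, Hmox1 correlated with Slc11a1 at r = 0.839 and with Tfrc at 0.751, and Ftl1 with Ireb2 at −0.423. Spic was too low to rank.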

How the data were processed

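The authors trimmed reads with cutadapt and aligned them to mm10 with STAR, per the labels. Versions of these tools are not given in the sources used here. The deposited STAR gene counts list 55450 genes (time course), 54146 (day 8, peritoneal, antibody, set 3, Irf7 double KO) or 55536 (the other BMDM libraries). Of the 54146 genes of the day 8, peritoneal and antibody files, 54079 were named in GENCODE vM21, the annotation used here. Counting on vM21 therefore cannot be stated for every file. The model of the BMDM sets held 54079 genes and mixes libraries counted on different lists. Counts without regard to strand were used as deposited, since both strand columns held about equal shares. BMDM libraries followed rRNA depletion, and peritoneal libraries a SMART-Seq kit. Library totals were 14419697 to 20220329 (time course), 3614967 to 9879339 (day 8), 7625225 to 23381318 (peritoneal), 5295144 to 34380735 (antibody) and 21504555 to 45581528 (sets).

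Each experiment was fitted in 1 model with edgeR 4.0.16 in R 4.3.3 (filterByExpr at 10 and 15 counts, TMM, quasi-likelihood test, Benjamini-Hochberg over all genes, threshold 0.05), tested first on simulated counts. CPM use TMM-scaled totals, and SE is the fold change over the root of F. DESeq2 1.42.0, RLE factors, no filter, a mean CPM of 1, 1 strand column, a replicate block, only the groups compared, single reference sets and leaving out each library were the alternatives. Members and lists were chosen with earlier results of these data known. List genes named were up to 10 called in the most of 9 comparisons of cKO with WT. The contrasts between sets were added after the data were seen. The 2 cKO day 8 libraries, whose title and library name disagree on IFNg, entered no comparison. Within groups, the closest libraries differed by a mean chi-square of 4.5 per gene, so none was counted as a duplicate. Where nothing says that libraries came from separate animals, p-values measure the spread between libraries.

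Numbers were taken to pair libraries where every same-numbered pair deviated together with r over 0.1. This held for WT with cKO on day 3 (0.126 to 0.419) and day 7 (0.153 to 0.467), cKO days 3 and 7 (0.138 to 0.415) and 5 and 7 (0.233 to 0.492), WT with and without IFNg (0.335 to 0.451), the peritoneal groups (0.144 to 0.194), WT without and with control antibody (0.145 to 0.284), cKO without and with IFNAR1 antibody (0.201 to 0.322) and WT sets 1 and 3 (0.143 to 0.386).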

Additional observations from a re-analysis of the deposited data

Results flagged for a closer look

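The difference between cKO and WT itself differed between BMDM sets for 5 members, by the interaction term of genotype and set (edgeR, adjusted over all genes). On the log2 scale, set 2 minus set 1 gave 0.79 for Slc40a1, −1.10 for Hmox1, −0.55 for Fth1, −1.34 for Tfrc and −0.86 for Slc11a2. Set 2 minus set 3 gave 0.90 for Slc40a1 (0.895), −1.10 for Hmox1, −1.44 for Tfrc and −0.87 for Slc11a2. All 9 values kept their call in each of the 12 fits that left out a library and under the other settings run. The share of all genes called was 20% and 19.5%, and the cause was not tested.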

How the results depend on the processing

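Calls were summed over the comparisons of a kind, so 1 member can count more than once. Shares of all genes under each setting are not given. The main fits gave 0 calls for cKO against WT in the time course and 6 and 5 for WT and cKO across days. They gave 0 for the change of the cKO difference with time and 0 between arms. For cKO against WT they gave 1 on day 8 and 1 with antibodies. Without a filter on low counts the calls became 1 for cKO against WT in the time course. They became 11 and 9 for WT and cKO across days and 1 for the change of the cKO difference with time. With antibodies they became 3 for cKO against WT and 3 between arms. DESeq2 gave 10 and 8 across days, 3 with antibodies and 3 between arms. With only the groups compared the counts were 2 for cKO against WT in the time course, 9 for cKO across days, 0 for cKO against WT on day 8, 4 with antibodies and 6 between arms. A replicate block gave 9 for cKO across days, 0 for cKO against WT on day 8 and 2 between arms; among paired groups it changed no other call than those of Slc11a2, Fth1 and Tfrc given above. No paired analysis was possible for the double KOs because the labels do not tie them to a set. One strand column gave 0 on day 8. For the 3 double KOs against WT there were 9 calls with set 1 alone, beside 16 with the mean of the sets. Further, 8 differences of double KOs from WT turned with the reference set: Hmox1 in Sting to 0.039 (set 1) and 0.42 (set 3), in Mavs to −0.48 (set 2) and in Irf7 to 0.074 (set 3); Tfrc in Mavs to −1.01 (set 2) and in Irf7 to 0.20 (set 1) and 0.28 (set 3); and Slc11a2 in Irf7 to 0.12 (set 3). The cause was not tested. Leaving out 1 library gave 0 to 1, 3 to 8, 0 to 6 and 0 to 1 calls in the time course (cKO against WT, WT days, cKO days, change), 0 to 3, 6 to 11 and 0 to 3 on day 8 (cKO against WT, IFNg, change), 0 in peritoneal cells, 0 to 4, 0 to 3 and 0 with antibodies (cKO against WT, arms, change), and 8 to 10, 7 to 10, 13 to 18 and 9 to 10 in the sets (cKO against WT, double KO against cKO and WT, between sets). For the members' called values, with Slc40a1 and Hmox1 of cKO against WT on day 3, 973 values under alternatives kept direction and side of the threshold, 119 lost their call, 3 gained one and 8 turned; gains among values not called are in the counts above. Depth limits Spic, at 0 to 5.18 CPM.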

Other observations

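The 2 cKO libraries of day 8 that entered no group were left out because title and library name disagree on IFNg. In CPM of the total count, the library whose title names IFNg held 96.6 of Tfrc, 369 of Hmox1, 199 of Slc40a1, 47.9 of Slc11a2, 8438 of Fth1 and 1487 of Ftl1. The library whose title does not name it held 19.9 of Tfrc, 93.2 of Hmox1, 66.6 of Slc40a1, 57.3 of Slc11a2, 4758 of Fth1 and 827 of Ftl1. On this scale the untreated cKO libraries held 115 and 103 of Tfrc, 341 and 347 of Hmox1 and 194 and 197 of Slc40a1. They held 50.3 and 54.4 of Slc11a2, 8790 and 8402 of Fth1 and 1226 and 1597 of Ftl1. The IFNg cKO libraries held 18.5 and 30.4 of Tfrc, 33.2 and 110 of Hmox1 and 26.8 and 68.2 of Slc40a1. Of Slc11a2 they held 23.5 and 54.7, of Fth1 1450 and 4511 and of Ftl1 1078 and 913. Which label is right was not tested.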
